A study of Mus musculus with 3 samples.

Results

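Classical MHC class II molecules present peptides from endosomes to CD4+ T cells, and dendritic cells (DCs) are among the few cell types that make them in quantity. The alpha and beta chains assemble on the invariant chain (Cd74). Its remnant in the groove is then exchanged for peptide with the help of H2-DM, which H2-O restrains. The ubiquitin ligase Marchf1 sends class II molecules from the surface to lysosomes, and in DCs class II output is known to be set by transcription, by peptide loading and by this removal step. The 10 genes listed here were the chain genes H2-Aa, H2-Ab1 and H2-Eb1, the invariant chain gene Cd74, the H2-DM genes H2-DMa, H2-DMb1 and H2-DMb2, the H2-O genes H2-Oa and H2-Ob, and Marchf1. A probe set (a group of short oligonucleotides on the array that read 1 transcript) was used if the annotation table gave it exactly 1 gene and that gene was on the list. This gave 19 probe sets for 9 of the 10 genes, of 38533 probe sets and 17886 named genes in all. No probe set was assigned to H2-DMb1. A further probe set that the table assigns to both H2-Ob and Gm20506 was not used.

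The cells were wild-type mouse DCs grown from bone marrow with GM-CSF, a myeloid growth factor, over 5 days and sorted on PDL2, a ligand of the T cell receptor PD-1. The 3 groups were untreated PDL2- cells, PDL2- cells given 100 ng/ml of lipopolysaccharide (LPS), a bacterial cell wall component sensed through Toll-like receptor 4, and untreated PDL2+ cells. Each had 1 array, so no spread between samples could be estimated and no test was possible. The mouse strain, the number of mice and the duration of LPS are not given in the sources used here, and GM-CSF cultures of marrow hold macrophage-like cells beside DCs. Differences are described by size, with 2-fold (1 on the log2 scale) as the mark. Signals are log2 values after quantile normalization. The floor, below which a signal was not read, was 5.58, and a fold against an array at the floor is a lower bound.

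The sort marker gene Pdcd1lg2 read 8.40 in PDL2- untreated, 9.44 in PDL2- LPS and 11.73 in PDL2+ cells. All 7 DC markers were above the floor on all 3 arrays, and so were all 7 macrophage markers. The macrophage markers had mean log2 signals of 12.20, 11.97 and 7.70 in PDL2- untreated, PDL2- LPS and PDL2+ cells, and all 7 were lower in PDL2+ cells. Of 7 B cell markers with a probe set, 1, 2 and 0 were above the floor in the same order, the highest of them being Cd79b at 5.94 in PDL2- untreated cells. In bulk RNA, fewer cells of a type and less RNA per cell cannot be told apart.

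Transcription of class II genes is classically described as resting on conserved promoter boxes, among them the X box, bound by the RFX complex, and the Y box, an inverted CCAAT box bound by NF-Y, on which the coactivator Ciita assembles. Promoter sequence was held in the RefSeq table (GRCm38.p6) for 8 of the 10 genes, in 11 windows, and was absent there for H2-Ab1 and Cd74. The following stretches are shown because they carry the letters common to most of the class II genes here. Capitals mark the X box core AACNNATG and the Y box core TGATTGG, or only the latter for the last pair. Only exact matches were sought, so a window without these letters may still hold a box that differs from them.
H2-Eb1, chr17:34305758-34305824, plus strand: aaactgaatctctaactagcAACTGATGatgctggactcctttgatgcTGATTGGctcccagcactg
H2-Eb2, chr17:34325525-34325591, plus strand: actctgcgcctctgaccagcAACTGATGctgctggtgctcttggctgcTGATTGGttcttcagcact
H2-DMb1, chr17:34153079-34153146, plus strand: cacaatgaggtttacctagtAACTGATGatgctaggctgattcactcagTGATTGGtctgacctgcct
H2-DMb2, chr17:34145108-34145175, plus strand: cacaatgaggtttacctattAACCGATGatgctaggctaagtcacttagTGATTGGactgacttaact
H2-Ob, chr17:34238800-34238864, plus strand: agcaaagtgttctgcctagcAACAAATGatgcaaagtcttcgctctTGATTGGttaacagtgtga
H2-Aa, chr17:34287855-34287918, minus strand: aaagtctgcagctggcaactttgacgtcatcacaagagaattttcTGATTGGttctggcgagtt
H2-Oa, chr17:34092289-34092352, plus strand: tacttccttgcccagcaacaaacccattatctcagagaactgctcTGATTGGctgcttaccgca

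The letters were chosen after the sequences had been read, so their frequency in these genes is a description. Searched on both strands in the 250 bases before each start site, AACNNATG was found in 7.71% of 32851 windows and TGATTGG in 7.23%; the motifs share no bases in the stretches shown. Both on 1 strand, with 10 to 30 bases between them, were found in 15 windows (0.0457%), each of a different gene. Of these, 4 belonged to the list (H2-Eb1, H2-DMb1, H2-DMb2 and H2-Ob), and another was that of the class II beta chain paralogue H2-Eb2. The gap between the motifs was 18 bases in H2-Ob, 20 in H2-Eb1 and H2-Eb2, and 21 in H2-DMb1 and H2-DMb2. These letters do not occur in either window of H2-DMa, and of the 3 windows of Marchf1 only 1 holds AACNNATG, on the reverse strand, and none holds TGATTGG. As the signals below show, measured genes with the same letters differed in size and direction between the arrays. The part of the letters in these differences was not tested.

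**Figure D1:**
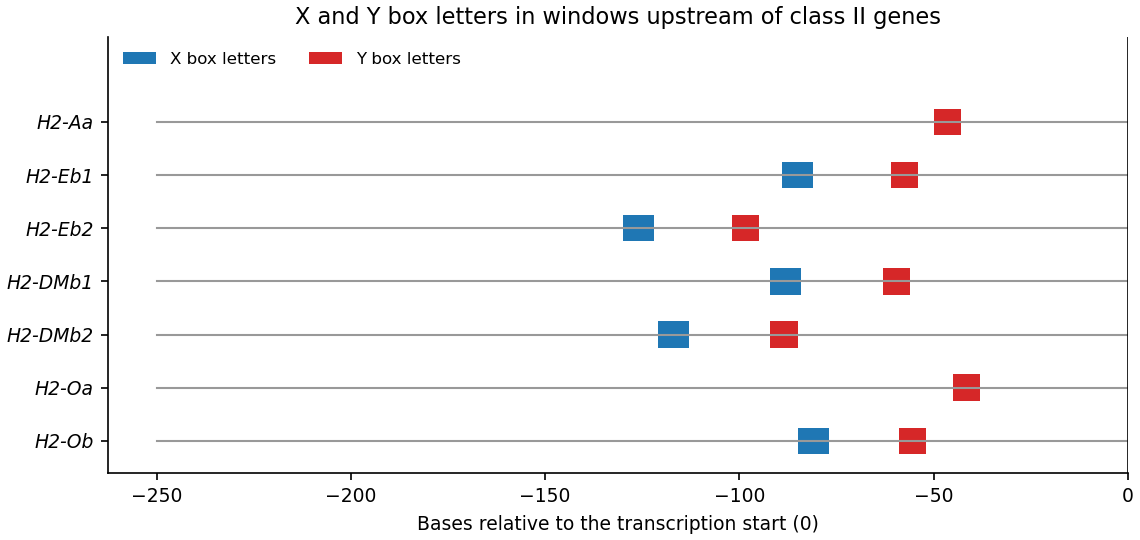
Positions of the X box letters (AACNNATG, blue) and the Y box letters (TGATTGG, red) in the 250 bases before the RefSeq transcription start (0) of 7 class II genes; the horizontal axis is in bases. In 5 of the genes the X box letters lie 18 to 21 bases before the Y box letters, and in H2-Aa and H2-Oa only the Y box letters match exactly. An X box that differs from AACNNATG would not be marked.

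The chain genes and the invariant chain gene were at the top of the signal range on all 3 arrays and differed by less than 2-fold between them. H2-Aa, the I-A alpha chain gene, read 14.50 in PDL2- untreated, 14.47 in PDL2- LPS and 14.54 in PDL2+ cells with its brightest probe set, which ranked 9th, 10th and 6th among 38533 probe sets. Cd74 ranked 16th on each array and therefore read 14.33 on all 3 after quantile normalization, from deposited values of 14.34, 14.32 and 14.31. H2-Eb1, the I-E beta chain gene, read 14.17, 14.10 and 14.19. The arrays did not separate for these 3 genes. A signal was called near the top of the scale if it was among the highest 1% of its array, above 12.70. By this rule 8 of the 19 probe sets were near the top on all 3 arrays, and they comprised 3 of the 4 H2-Aa probe sets, all 3 of H2-Ab1 and the single ones of H2-Eb1 and Cd74. Differences can be compressed there, so these values do not bound a change in transcript amount.

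The H2-Aa probe set that lay below this limit read 11.04, 10.70 and 11.10, which differed by -0.34 after LPS and by 0.06 in PDL2+ cells. It too was within 2-fold, but its name ends in _x_at, the mark of oligonucleotides shared with other transcripts. The brightest H2-Aa probe set carries this mark as well. Among the other H2-Aa probe sets, 1 held the deposited value 14.00 on every array and another held 13.76 on every array. Identical deposited values on all 3 arrays were found for 18.2% of all probe sets, and their cause was not tested.

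H2-Ab1, the I-A beta chain gene, differed in 1 direction in all 3 of its probe sets in PDL2+ cells. Its brightest probe set read 14.29, 14.18 and 13.84. The difference in PDL2+ against PDL2- untreated cells was -0.45, -0.47 and -0.32 in these, against a technical spread of 0.21 (a robust SD over 4243 genes, from how far the brightest and the next probe set of a gene disagree). All 3 values were short of 2-fold. The technical spread leaves out variation that probe sets of a gene share, such as that between cultures, which 1 array per group cannot give. After LPS the differences ran from -0.11 to 0.02. The other chain genes, H2-Aa and H2-Eb1, differed by 0.05 and 0.02 in the PDL2 comparison, and by -0.02 and -0.002 with the deposited values, so they had no settled direction.

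H2-Ea, whose product pairs with that of H2-Eb1, is not on the list and was looked at after its values had been seen. Some common laboratory strains carry no working copy of it. Of its 3 probe sets, 2 were below the floor on all 3 arrays, and the third read 7.24, 7.46 and 7.28.

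**Figure D2:**
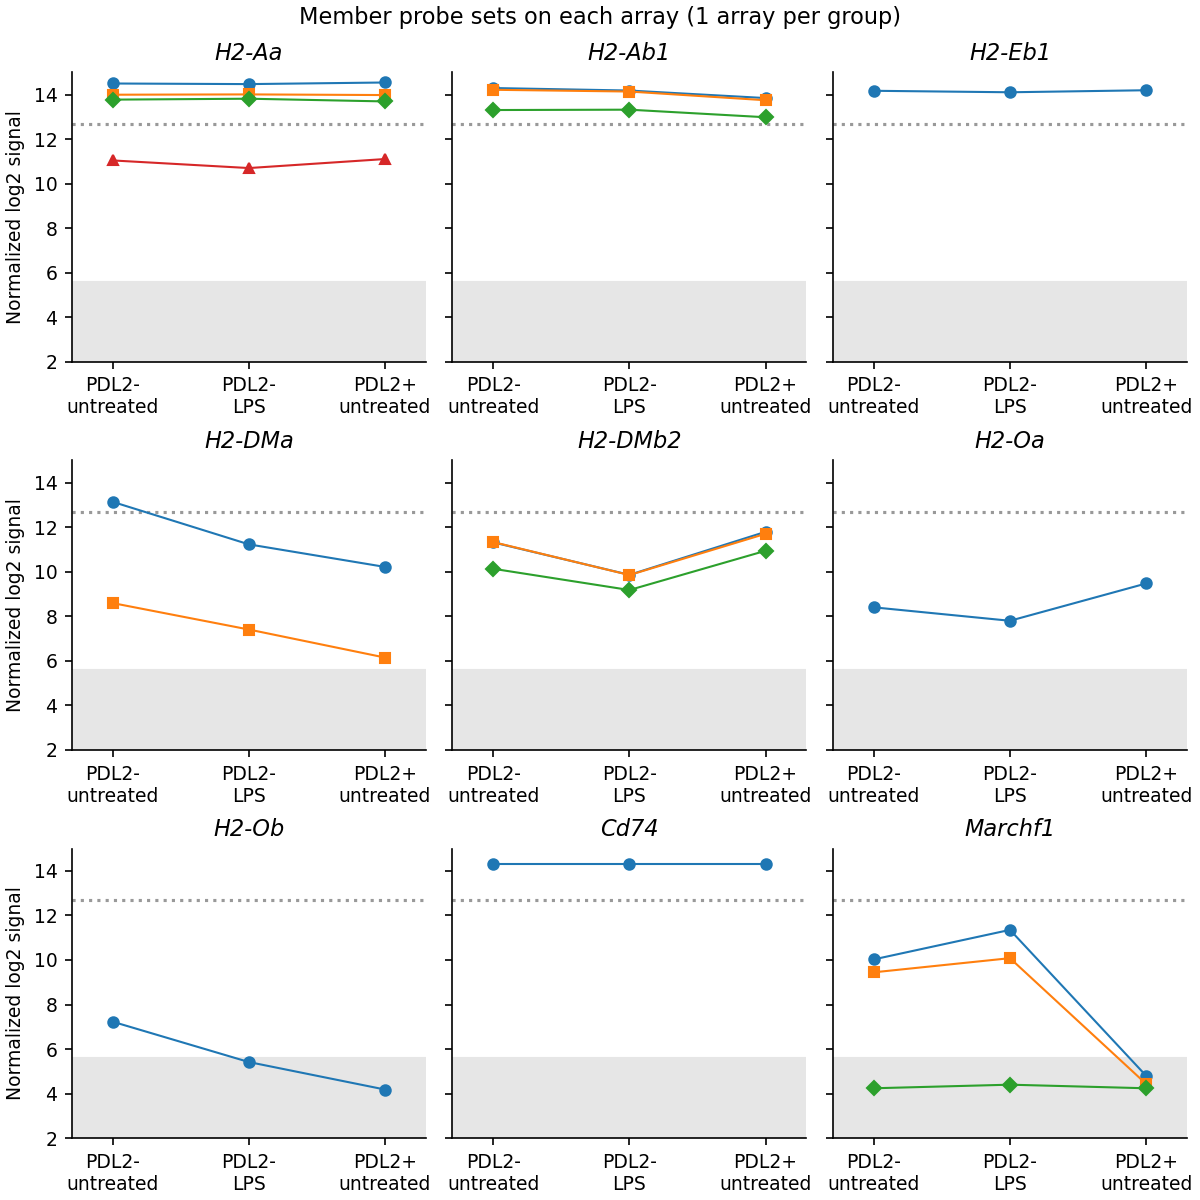
Normalized log2 signal (vertical axis) of every probe set of the 9 measured genes on the 3 arrays, 1 line per probe set and 1 array per group; lines join values of 1 probe set and do not mark an order. Grey marks signals below the floor of 5.58 and the dotted line the limit of 12.70 for the highest 1% of an array. H2-Aa, H2-Ab1, H2-Eb1 and Cd74 lie at the top, H2-DMa is lower on both other arrays than in PDL2- untreated cells, and Marchf1 is under the floor in PDL2+ cells.

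The H2-DM genes diverged. H2-DMa encodes the alpha chain of H2-DM, the catalyst of peptide exchange. It read 13.14 in PDL2- untreated, 11.23 in PDL2- LPS and 10.22 in PDL2+ cells, highest in the first and lowest in the last. It was 3.75-fold lower after LPS and 7.57-fold lower in PDL2+ cells. Its second probe set read 8.59, 7.41 and 6.15, the same order, with folds of 2.28 and 5.45. This second probe set carries the _x_at mark. The untreated signal of the brighter probe set was near the top of the scale, so that its folds may be understated. Among 10926 genes measured in the PDL2 comparison, 2.75% were at or below the H2-DMa difference of -2.92.

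H2-DMb2 encodes a beta chain of H2-DM. Its brightest probe set read 11.32 in PDL2- untreated, 9.86 in PDL2- LPS and 11.79 in PDL2+ cells, lowest after LPS. It was 2.74-fold lower after LPS, and 0.47 higher on the log2 scale in PDL2+ cells. A second probe set assigned to H2-DMb2 read 11.33, 9.85 and 11.71. The third read 10.14, 9.18 and 10.94, with differences of -0.95 after LPS and 0.81 in PDL2+ cells. All 3 probe sets had 1 direction in each comparison. H2-DMa and H2-DMb2 thus both had lower signals after LPS, and lay on opposite sides of 0 in PDL2+ cells, where the beta chain gene did not reach 2-fold. H2-DMb1 and H2-DMb2 are near copies, and which of them the H2-DMb2 probe sets read could not be settled, least of all for the brightest, whose name ends in _x_at, the mark of oligonucleotides shared with other transcripts.

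The macrophage marker signals were lower in PDL2+ cells together with H2-DMa, with a median log2 difference of -4.57 over 7 of 7 markers. After LPS, where H2-DMa differed by -1.91 on the log2 scale, the median of these markers was -0.44. Neutrophil markers were lower after LPS together with both H2-DM genes (3 of 4 past 2-fold, median -1.45, among them S100a9 at -1.65 and Mpo at -1.72), and had a median of -0.11 in PDL2+ cells. The part of either marker list in the H2-DM differences was not tested.

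The genes of H2-O, which restrains H2-DM and is best known from B cells, also differed in their pattern. H2-Oa, the alpha chain gene, read 8.40 in PDL2- untreated, 7.80 in PDL2- LPS and 9.48 in PDL2+ cells. It was highest in PDL2+ cells, by 2.10-fold over PDL2- untreated cells, or by 0.97 on the log2 scale with the deposited values, which is short of 2-fold. After LPS it differed by -0.60. H2-Ob, the beta chain gene, read 7.23 in PDL2- untreated cells and was under the floor on the other arrays, at 5.42 after LPS and 4.18 in PDL2+ cells. It was therefore at least 3.14-fold lower in each, and these arrays cannot be ordered for it. Both calls end with the floor at the 75th percentile of all values, where H2-Ob was under it on all 3 arrays, and with no floor its difference in PDL2+ cells was -3.04. Each of the H2-O genes rests on 1 probe set. The unused probe set that names both H2-Ob and Gm20506 read 7.11, 7.32 and 6.69 in the same order of arrays. It was above the floor on all 3 arrays and stayed within 2-fold, so the H2-Ob calls hold for the probe set used only. The B cell markers with a probe set stayed between 4.67 and 5.94 on the 3 arrays.

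Marchf1 had the largest difference of the measured members in the PDL2 comparison. Its brightest probe set read 10.03 in PDL2- untreated, 11.35 in PDL2- LPS and 4.80 in PDL2+ cells, where it was under the floor. It was at least 21.8-fold lower in PDL2+ than in PDL2- untreated cells. This log2 difference of -4.45 was -2.22 with the floor at the 75th percentile, -2.33 with averaged probe sets and -5.22 with no floor. The second probe set read 9.45, 10.08 and 4.44, and was at least 14.6-fold lower in PDL2+ cells. Both put the PDL2+ array last and the LPS array first. After LPS the brighter one was 2.50-fold higher and the other 1.55-fold higher, so the LPS difference passed 2-fold in 1 of the 2. The remaining probe set was under the floor on all 3 arrays, and the averaged values given here take it in. PDL2+ cells against LPS-treated PDL2- cells gave at least 54.7-fold lower with the brightest probe set, a log2 difference of -5.77, which was -3.55 with the higher floor, -3.03 with averaged probe sets and -6.55 with no floor. Of 10926 genes, 0.668% were at or below the Marchf1 difference in the PDL2 comparison. Macrophage marker signals were lower in PDL2+ cells here too, as given above for H2-DMa. So were all 4 monocyte markers with a probe set (median -3.94, with Itgam at -4.61 and Cd14 at -4.46). The part of both lists was not tested.

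By count, 1 of the 9 measured members was at least 2-fold higher after LPS (Marchf1) and 3 were lower (H2-DMa, H2-DMb2 and H2-Ob). Of all 11000 genes measured, 9.17% were higher and 13.8% lower. In PDL2+ against PDL2- untreated cells, 1 of 9 was higher (H2-Oa) and 3 were lower (H2-DMa, H2-Ob and Marchf1), against 10.1% and 13.0% of 10926 genes. In PDL2+ against LPS-treated PDL2- cells, 2 of 8 measured were higher (H2-DMb2 by 3.81-fold and H2-Oa by 3.19-fold) and 2 were lower (Marchf1 and, by 2.02-fold, H2-DMa), against 15.6% and 12.6% of 11042 genes. The median difference over the measured members was -0.11, 0.00 and 0.04 in the 3 comparisons, and 0.02, 0.01 and -0.05 over all genes. With the deposited values the LPS medians were -0.09 for the members and -0.09 for all genes. The members' median of 0.00 in the PDL2 comparison is the Cd74 value, made equal by its rank, and was -0.03 with the deposited values. The 3 comparisons share arrays in pairs, so their values stand side by side and are not independent of each other.

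**Figure D3:**
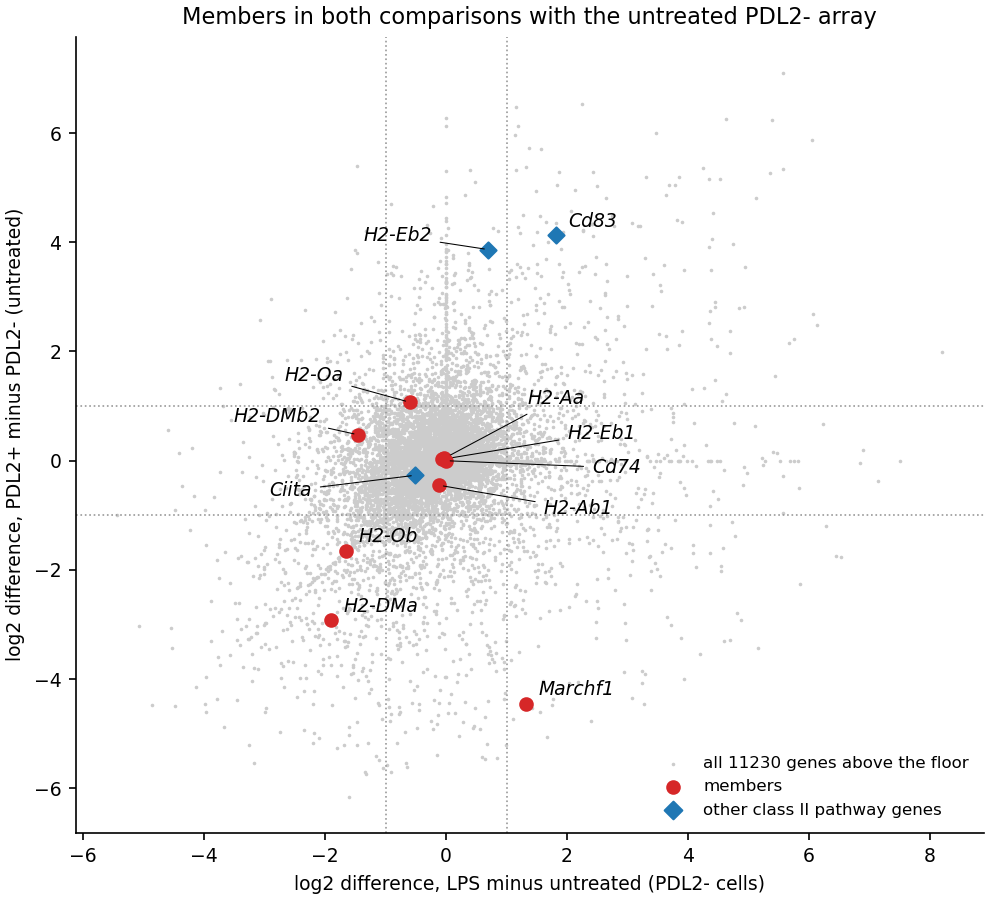
The log2 difference after LPS in PDL2- cells (horizontal) against that in PDL2+ minus PDL2- untreated cells (vertical) for 11230 genes above the floor on at least 1 array (grey), the 9 measured members (red) and 3 other pathway genes (blue); dotted lines mark 2-fold. Both axes subtract the same untreated array, so a slope in the cloud is built in. Marchf1 lies at 1.32 and -4.45, H2-DMa at -1.91 and -2.92, and the chain genes and Cd74 near 0.

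Except for Cd74 and Marchf1, the members lie in a single stretch of chromosome 17, among the class I processing genes. In RefSeq order, 14 protein-coding genes run from H2-Oa to H2-Eb2. H2-DMa and H2-DMb2 are next to each other in it, and differed by -2.92 and 0.47 in PDL2+ cells. H2-Ob, at least 3.14-fold lower by the probe set used, lies between Tap2, which was 0.40 higher on the log2 scale, and H2-Ab1. After LPS, Psmb9, an immunoproteasome subunit gene, and Tap2, a peptide transporter gene, were higher by 1.19 and 1.80 on the log2 scale. By their brightest probe sets, the 7 measured members on this stretch were all below 0 after LPS, from -1.91 (H2-DMa) to -0.03 (H2-Aa). With median centring H2-Aa was at 0.01, and other probe sets of H2-Aa and H2-Ab1 reached 0.04 and 0.02. Differences of the chain genes by the brightest probe sets were within the technical spread of 0.29, while the dimmest H2-Aa probe set was at -0.34.

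**Figure D4:**
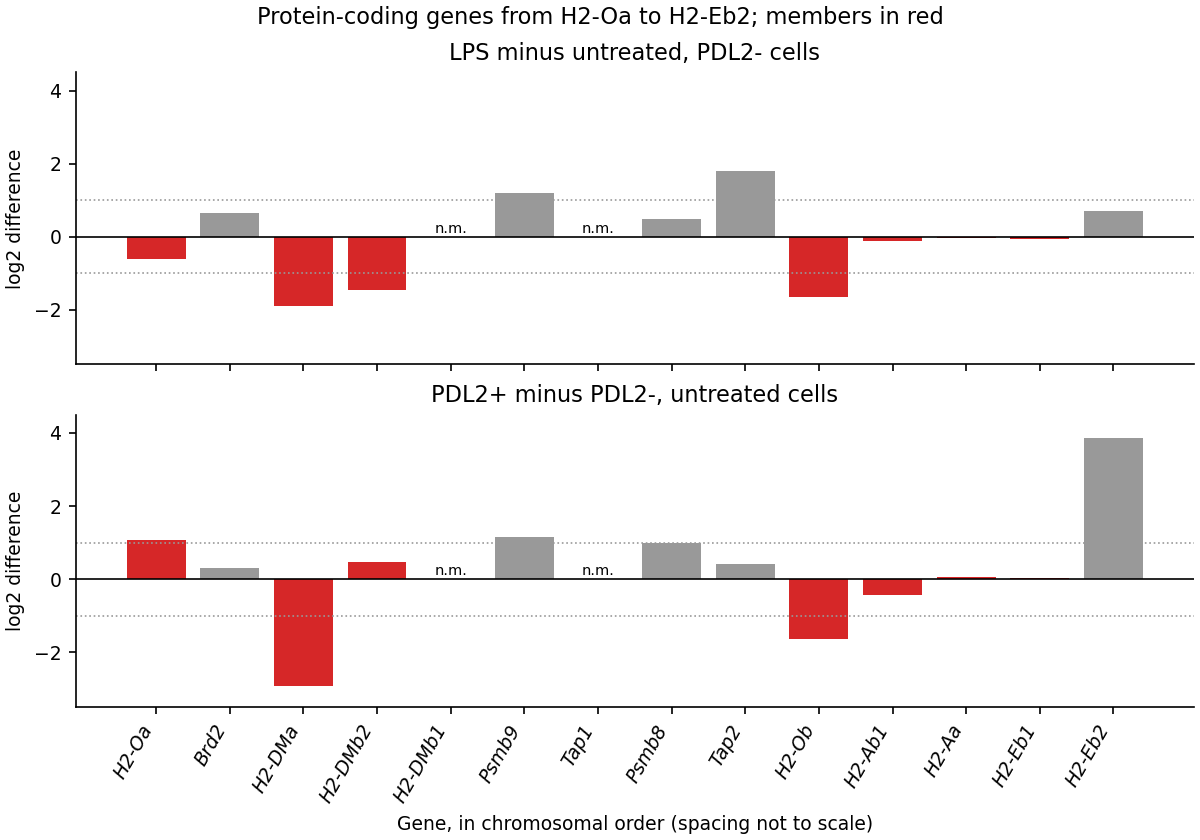
Log2 differences (vertical axes) of the 14 protein-coding genes from H2-Oa to H2-Eb2 in chromosomal order, after LPS (upper panel) and in PDL2+ against PDL2- untreated cells (lower panel); members are red, the other genes grey, dotted lines mark 2-fold, and n.m. marks a gene with no probe set or below the floor on both arrays. H2-DMa (-2.92) and its neighbour H2-DMb2 (0.47) differ in direction in the lower panel, and H2-Eb2 stands at 3.87.

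H2-Eb2, the beta chain paralogue at the end of this stretch, belongs to the wider pathway list. It read 6.25 in PDL2- untreated, 6.95 in PDL2- LPS and 10.12 in PDL2+ cells, from 1 probe set. That put it 14.6-fold higher in PDL2+ than in PDL2- untreated cells and 8.97-fold higher than in LPS-treated cells, beside an H2-Eb1 signal that stayed between 14.10 and 14.19. Both log2 differences (3.87 and 3.16) were 2.31 under a floor at the 75th percentile. Its promoter letters are shown above.

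The wider pathway list gave 29 genes with a probe set, and Rfx5 had none assigned. After LPS 6 of 29 were higher and 3 lower, and in PDL2+ cells 6 of 28 were higher and 7 lower, with medians of -0.22 and -0.27. Over all genes, 9.17% were higher and 13.8% lower after LPS, and 10.1% and 13.0% in PDL2+ cells; the same shares are the background of the smaller groups that follow. Among 10 genes for class II transcription, 3 were higher and 0 lower after LPS, and 3 were higher and 1 lower in PDL2+ cells. Ciita, the master coactivator of class II genes, read 8.76 in PDL2- untreated, 8.26 in PDL2- LPS and 8.50 in PDL2+ cells. It differed by -0.51 and -0.27, short of 2-fold, and its second probe set gave -0.14 and -0.13. The RFX subunit genes Rfxank and Rfxap also stayed within 2-fold, with a difference of -0.81 for Rfxap after LPS, and so did the NF-Y subunit gene Nfyc (-0.28 and -0.25) and Spi1, a myeloid transcription factor gene (0.65 and -0.72).

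Irf1, an interferon-induced factor that can act on a Ciita promoter, was 6.15-fold higher after LPS and 2.74-fold higher in PDL2+ cells. Nfyb, another NF-Y subunit gene, was 2.86-fold higher after LPS, and Nfya was 2.19-fold higher in PDL2+ cells, where other probe sets of it gave as little as 0.24. Prdm1, which encodes Blimp1, a repressor of Ciita in plasma cells, read 8.86 in PDL2- untreated, 9.89 in PDL2- LPS and 6.94 in PDL2+ cells. It was therefore 2.05-fold higher after LPS and 3.78-fold lower in PDL2+ cells. Creb1 was 2.21-fold higher in PDL2+ cells, and its probe sets disagreed after LPS (-1.22 to 1.37).

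Of 12 genes for endosomal proteases and their partners, 1 was higher and 2 were lower after LPS, and 0 were higher and 5 lower in PDL2+ cells. Ctss, the protease that trims the invariant chain in DCs, read 14.34, 14.34 and 14.06, near the top of the scale like Cd74. Ctsl and Ctsd, other cathepsin genes, were 9.97-fold and 9.40-fold lower in PDL2+ cells. The second probe set of Ctsl gave -0.54 on the log2 scale both here and after LPS. These values are set by the floor and are lower bounds in size. Ctsb, Ctsc and Lgmn were also lower in PDL2+ cells, with log2 differences of -1.43, -1.43 and -1.06. Ifi30, a reductase that opens disulphide bonds in antigens, was 2.47-fold lower after LPS and differed by 0.16 in PDL2+ cells, and Ctsh was 2.08-fold lower after LPS. Sppl2a, which removes the last membrane stub of the invariant chain, was 2.17-fold higher after LPS by its brightest probe set and 0.24 higher on the log2 scale by another. Several of these proteases are also abundant in macrophages, whose marker signals were lower in PDL2+ cells; that part was not tested.

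Among genes for the ligand and partners of surface Cd74, Cxcr4 read 10.80 in PDL2- untreated, 7.86 in PDL2- LPS and 12.63 in PDL2+ cells. It was 7.66-fold lower after LPS and 3.54-fold higher in PDL2+ cells. Mif, the ligand, was 2.53-fold lower in PDL2+ cells, and Cd44 differed by 0.76 after LPS and -0.98 in PDL2+ cells by its brightest probe set, while others reached 1.11 and -1.51, past 2-fold.

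In PDL2+ against LPS-treated PDL2- cells, 7 of the 29 pathway genes were higher and 11 lower, against 15.6% and 12.6% of all genes. The higher ones, beside H2-Eb2 and Cxcr4, were Cd83, Creb1, Ifi30, Ctsh and Cst3, the last encoding cystatin C, an inhibitor of cathepsins (2.32-fold). The lower ones included Prdm1 (7.73-fold), Ctsl (6.53-fold), Ctsd (5.95-fold), Ctsc (3.82-fold), Cd44 (3.34-fold), Sppl2a (3.26-fold) and Spi1 (2.57-fold). The other probe set of Ctsl gave 0.00 because both arrays were at the floor, so it does not read this difference. Probe sets disagreed for Creb1, where they ran from -0.11 to 2.45. Ctsb, Irf1, Nfyb and Il10 made up the rest.

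Marchf8, the paralogue of Marchf1, read 8.85 in PDL2- untreated, 8.18 in PDL2- LPS and 8.29 in PDL2+ cells and stayed within 2-fold. Cd83, whose product is known to oppose Marchf1, read 9.24, 11.06 and 13.38. It was 3.53-fold higher after LPS and 17.5-fold higher in PDL2+ cells. After LPS, Marchf1 and Cd83 were thus both higher, and in PDL2+ cells they lay on opposite sides. Il10, a cytokine known to induce Marchf1, was at least 51.5-fold higher after LPS and was under the floor in PDL2- untreated and PDL2+ cells.

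**Figure D5:**
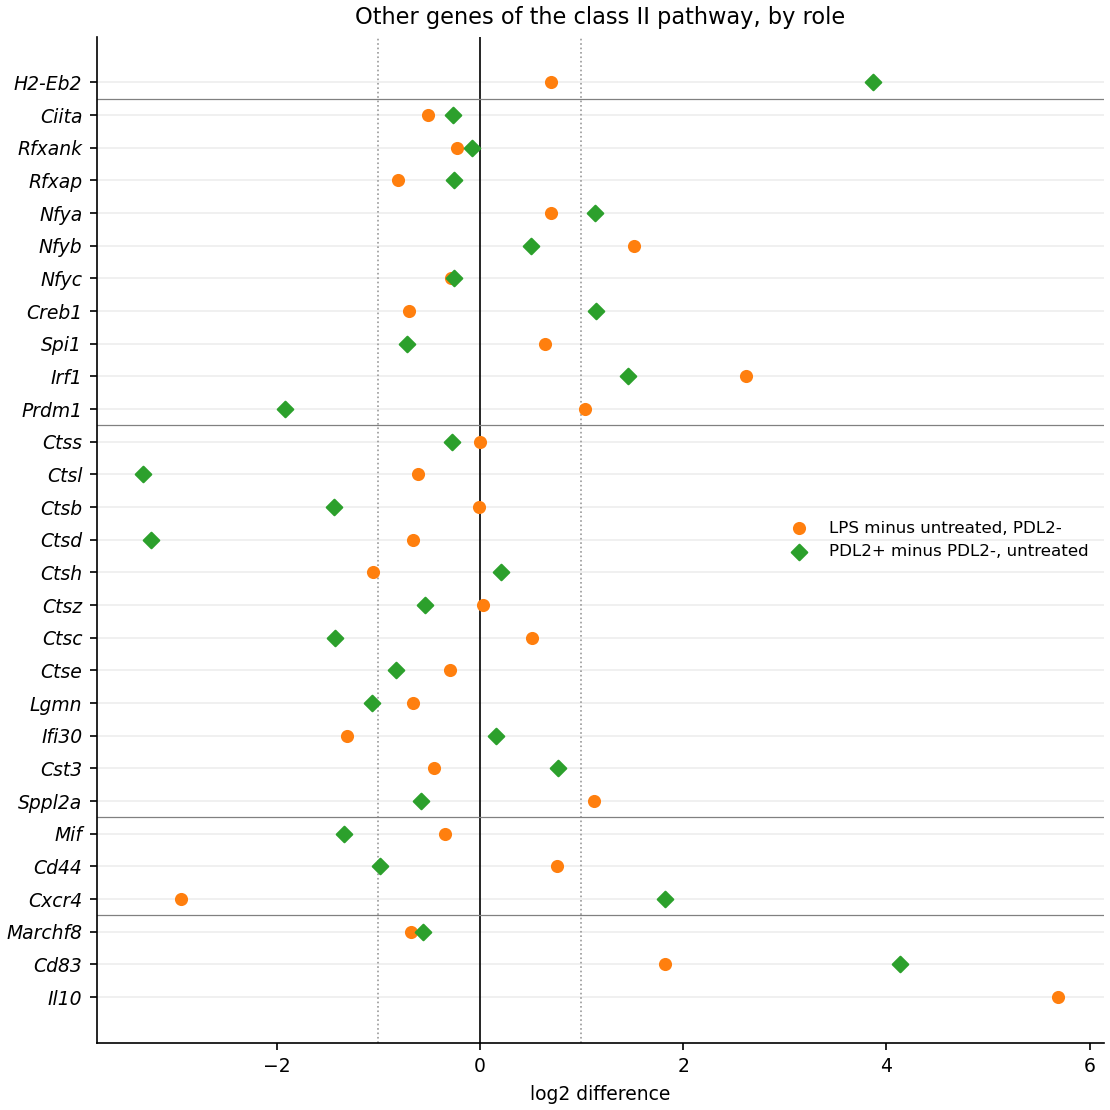
Log2 differences (horizontal axis) after LPS in PDL2- cells (circles) and in PDL2+ against PDL2- untreated cells (diamonds) for the 29 pathway genes with a probe set, grouped by role from class II paralogue and transcription to proteases, Cd74 partners and the genes linked to Marchf1; dotted lines mark 2-fold. The cathepsin genes Ctsl (-3.32) and Ctsd (-3.23) lie lowest and Cd83 (4.13) highest among the diamonds; Il10 has no diamond, being under the floor on both arrays.

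The genes nearest in pattern were taken as the 5 with the smallest Euclidean distance over both differences from the untreated PDL2- array, which rest on 3 arrays, among 11230 genes. For Marchf1 these were F10, Lgals9, Itgal, Sash1 and Bst1, at distances of 0.13 to 0.40 on the log2 scale; F10, a coagulation factor gene, differed by 1.42 and -4.54. The Marchf1 value of -4.45 is itself set by the floor, as are those of Itgal and Bst1, so these distances rest on the floor. For H2-DMa they were Ptpn18, Camk1, Dennd4c, Lamtor4 and Alox5, at 0.03 to 0.24. For H2-DMb2 the nearest were Natd1, Uqcc3, Nsmce4a, Asph and Pink1, and for H2-Oa they were Zbtb42, Brk1, Cd2bp2, 2010315B03Rik and Wdr90. The 5 nearest to H2-Ob (Trim47, Tk1, Spc25, Mak and Slc16a7) were, like it, under the floor on 2 arrays, so that the floor sets their likeness. No member was among the 5 nearest genes of these members. Members short of 2-fold in both differences were given no such list. With only 5 of 11230 genes taken for each, this absence says little about likeness between members.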

How the data were processed

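Each deposited value is a log2 summary made by the authors for 1 probe set on 1 array, with the scale read from their range; background correction, normalization and summary method are not given in the sources used here. Array number limits the precision. The 75th percentiles of the 3 arrays differed by 0.22, above the tolerance of 0.1, so, with 13 controls left out, the remaining 38533 probe sets were brought to 1 common distribution by quantile normalization. Of 34436 named probe sets, 33987 name 1 gene (33800 updated through RefSeq, GRCm38.p6) and 449 several. A gene's brightest probe set stood for it. Values below the median of all normalized values were raised to it, and a gene entered a comparison if above it on at least 1 array. Python 3.11.15, numpy 2.4.6 and pandas 2.3.3 were used, and the steps were tested on simulated data. Members and gene lists were chosen with earlier results of these data known. Besides all members, pathway genes past 2-fold in a comparison were to be named, with Ciita, Rfx5, Ctss, Cd83 and Marchf8, and the 5 genes nearest in pattern to members past 2-fold; other genes were named after their values were seen. Marker lists: the monocyte, plasmacytoid DC, neutrophil, and T and NK lists had 4 of 4, 4 of 4, 4 of 4 and 1 of 3 genes above the floor on every array. Alternatives were the normalization, floor, probe set choice and threshold.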

Additional observations from a re-analysis of the deposited data

How the results depend on the processing

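No paired analysis was possible because each group had 1 array. Across normalization, floor and probe set choices, the counts of members past 2-fold stayed between 3 and 5 in every comparison. Of 207 single-gene values for the members, H2-Eb2, Cd83 and Ciita, 195 moved by less than the technical spread, with 0 changes of sign among differences past 2-fold. Many of them could not move. Probe set choice leaves a gene with 1 probe set as it is, and the floor leaves a gene above every floor as it is. Values that fell out under the higher floor are not among the 207, so this share does not measure robustness. Calls changed for H2-Oa in PDL2+ cells (0.97 with deposited or median-centred values) and Marchf1 after LPS (0.71 with averaged probe sets). That average includes the Marchf1 probe set that was under the floor on every array. H2-Ob was not measured with the floor at the 75th percentile, which left 3 of 8 members past 2-fold after LPS and in PDL2+ cells; with no floor it was, which gave 5 of 9 in PDL2+ against LPS-treated PDL2- cells. The floor and averaging also moved Marchf1, and the floor H2-Eb2, by over 1.5 times, as given above. At 3-fold, 2 members passed after LPS, and the pathway counts were 4, 6 and 11; at 1.5-fold the LPS count was 19, against 9 at 2-fold. By construction the threshold alone differs there. Near the top of the scale differences of H2-Aa, H2-Ab1, H2-Eb1 and Cd74 can be compressed.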
